A study of Caenorhabditis elegans with 2 samples.

Results

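The histone genes of Caenorhabditis elegans were examined for peaks of KLF-2, a zinc-finger protein of the Krüppel-like family. Members were the protein-coding genes of the WBcel235 gene models whose symbol begins with his-, hil-, htz- or htas- and a number, which gave 82 of 19973 genes on the nuclear chromosomes. The data were ChIP-seq peak lists from 1 group of 2 biological replicates of midembryonic animals, whole organisms with a labelled age of 1.5 hours that were collected by bleaching. The animals were of strain RW12310, which carries the allele st12310 (TY1::EGFP::3xFLAG::klf-2) made by CRISPR insertion, and anti-GFP antibody was used for the immunoprecipitation. The strain label puts the allele on chromosome II, whereas klf-2 is annotated on chromosome V. There was no second condition, so histone genes were compared with the other genes and the replicates with each other. Whole embryos hold many cell types, and signal from a few cell types cannot be told apart from weaker signal in all of them.

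Histones package DNA into nucleosomes. The core histones H2A, H2B, H3 and H4 form the particle, and linker histones of the H1 type bind the DNA between particles. Most core histone genes are transcribed in S phase, and their mRNAs end in a conserved stem-loop in place of a poly(A) tail, while replacement variants such as H3.3 and H2A.Z are supplied outside S phase as well. In C. elegans the core genes lie in clusters as head-to-head pairs, H2A with H2B and H3 with H4, so that each pair shares the DNA between its starts. KLF and SP proteins of other animals bind GC-rich boxes and CACCC boxes.

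By protein identity to a reference member of each class, the 82 members comprised 18 H2A, 17 H2B, 16 H3, 16 H4, 5 H3.3-like, 1 H2A.Z (htz-1) and 9 H1 genes. No minimum identity was set, and it was lowest for the H1 genes hil-8 (18.6%) and hil-7 (23.0%, 62 residues). The short proteins of his-73 (46 residues, 33.1%) and his-39 (67 residues, 52.8%) are counted as H3 and H2B. They lay on chromosomes V (30 genes), IV (26), II (14), X (5), I (4) and III (3). A head-to-head pair whose starts lie at most 1000 bp apart was counted once, as was each gene without such a partner, which gave 51 promoter units: 31 pairs and 20 single genes. The starts of a pair were 228 to 369 bp apart, with a median of 259 bp. Members less than 10 kb apart formed 29 clusters, of which 14 held 67 genes, up to 13 genes in the cluster on chromosome II. The 3′ stem-loop was found within 200 bp after the stop codon of 57 members, 32 to 58 bp from it. It was found for 15 of 16 H3, 15 of 16 H4, 15 of 17 H2B and 12 of 18 H2A genes, and for none of the H3.3-like, H2A.Z or H1 genes. It is shown because it divides the members into stem-loop genes and the rest. In 53 members the loop bases were the same, and 4 members had another last loop base; capitals mark the pairing stem.
his-61, chrIV:7485784-7485799, minus strand: GGCCCTctttAGGGCC
his-52, chrV:8850872-8850887, plus strand: GGCCCTcttaAGGGCC

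The pairs carried a second shared sequence, in the DNA before their starts. Among all 8-base words in the 250 bp before the starts, TGTGTCCC and the overlapping ATGTGTCC were each found in the most promoter families, 17 of 38, where units that share at least 30% of their 36-base stretches count as 1 family. TGTGTCCC, read on either strand, was present in 26 of 51 histone promoter units (51.0%), against 0.51% of the promoter units of all genes. Among head-to-head pairs it was present in 64.5% of the histone pairs and in 1.54% of all pairs. These shares of all units and all pairs include the histone ones. Among genes other than histone genes, 67 (0.34%) had it. TGTGTCCC is called the element here, and it was looked at with the peaks in view. The pair his-6/his-5 (H3 and H4) shows its setting, given as the whole stretch between both starts in WBcel235. Capitals in this and the following sequences mark the element, TATAAA (the TATA box), and the boxes CCGCCC or CCACCC, on either strand.
his-6/his-5, chrV:8534978-8535213, plus strand: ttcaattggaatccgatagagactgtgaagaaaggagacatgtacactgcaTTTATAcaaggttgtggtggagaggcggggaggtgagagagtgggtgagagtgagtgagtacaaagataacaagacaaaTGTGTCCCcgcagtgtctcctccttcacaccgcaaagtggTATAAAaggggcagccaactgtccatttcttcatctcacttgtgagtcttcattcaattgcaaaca

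A further 5 pairs are shown with about 50 bases on each side of the element, which is read 5′ to 3′. They were chosen to set a pair with a conservative KLF-2 peak (his-61/his-62) beside pairs without one.
his-61/his-62, chrIV:7486400-7486500, plus strand: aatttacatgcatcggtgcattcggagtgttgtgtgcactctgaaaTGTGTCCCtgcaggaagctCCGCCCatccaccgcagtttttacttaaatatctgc
his-4/his-3, chrV:16040575-16040675, minus strand: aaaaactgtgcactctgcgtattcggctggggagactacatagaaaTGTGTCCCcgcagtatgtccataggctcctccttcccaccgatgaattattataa
his-31/his-32, chrIV:8334136-8334236, plus strand: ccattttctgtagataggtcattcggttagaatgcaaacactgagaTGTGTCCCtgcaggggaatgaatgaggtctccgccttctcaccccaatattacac
his-60/his-59, chrIV:7488053-7488153, minus strand: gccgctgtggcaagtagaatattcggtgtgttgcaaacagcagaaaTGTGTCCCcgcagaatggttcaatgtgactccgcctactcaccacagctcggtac
his-50/his-49, chrV:8847758-8847858, minus strand: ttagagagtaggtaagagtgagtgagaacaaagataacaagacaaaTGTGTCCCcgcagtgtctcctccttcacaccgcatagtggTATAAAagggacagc

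The element was also present before linker genes. It was found in 5 of 9 H1 units, hil-2, hil-3, hil-4, hil-5 and his-24, 54 to 69 bp before the start. The 120 bp before the start are shown for 4 of them and, as a linker gene without the element, for hil-1.
his-24, chrX:14489974-14490093, plus strand: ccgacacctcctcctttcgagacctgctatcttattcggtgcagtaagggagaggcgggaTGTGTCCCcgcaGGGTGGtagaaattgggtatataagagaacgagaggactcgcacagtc
hil-3, chrX:8159049-8159168, plus strand: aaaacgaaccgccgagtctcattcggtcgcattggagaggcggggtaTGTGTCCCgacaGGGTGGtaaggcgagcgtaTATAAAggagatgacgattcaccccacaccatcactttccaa
hil-4, chrV:4754193-4754312, plus strand: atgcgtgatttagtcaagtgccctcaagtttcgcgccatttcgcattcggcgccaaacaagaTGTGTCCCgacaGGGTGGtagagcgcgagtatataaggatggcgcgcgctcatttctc
hil-2, chrIV:6294120-6294239, plus strand: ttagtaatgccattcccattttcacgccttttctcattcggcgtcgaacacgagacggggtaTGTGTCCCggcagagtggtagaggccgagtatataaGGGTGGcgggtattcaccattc
hil-1, chrV:14949657-14949776, plus strand: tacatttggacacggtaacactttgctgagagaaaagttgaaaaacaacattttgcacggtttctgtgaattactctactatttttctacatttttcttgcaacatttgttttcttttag

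The word ATTCGG occurred within 50 bases before the element, on its strand, in 20 of the 26 histone units that have the element. It did so in 0 of the 67 other genes with the element. GCAG followed within 10 bases in 17 of the 26 histone units and in 3 of the 67 other genes. Both words were picked after the sequences were read, and near-identical pairs are counted more than once.

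KLF-2 peaks were present at a minority of the histone promoters. Calls were made from the conservative list that joins both replicates (1032 peaks), in which the lowest −log10 global irreproducible discovery rate (IDR, a measure of how far replicates rank a peak alike) was 2.00. A gene was called when a summit lay from 1000 bp upstream to 500 bp downstream of one of its transcript starts. By that rule 12 of 82 histone genes (14.6%) were called, against a background of 3.05% of all protein-coding genes. The 12 genes rest on 8 peaks in 8 promoter units and 8 clusters. Counted once per shared promoter, 8 of 51 histone units (15.7%) were called, against 2.73% of the units of all genes, and 4 of 31 histone pairs (12.9%), against 7.38% of all head-to-head pairs. The other 4 called units were single genes: the linker genes hil-5, hil-3 and his-24 and the H3.3 gene his-72.

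The pair his-61/his-62 (H2A and H2B) had the highest signal value, the peak caller's own measure of peak height, which is not normalized between lists. Its peak at chrIV:7486302-7486597 had a signal value of 132.8 in the list of both replicates, 55.1 in the list of replicate 1 and 76.1 in that of replicate 2. The summit lay 95 bp before the start of his-62 and 233 bp before that of his-61, 0 to 1 bp from the middle of the element shown above. The replicate summits fell 8 and 11 bp from the joint summit.

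The pair his-67/his-68 (H4 and H2A, chrI:9988833-9989128) followed with 115.9 for both replicates, 62.8 in replicate 1 and 54.6 in replicate 2. Its summit was 14 to 15 bp from the nearer of its 2 elements, and the peak also lay 821 bp before alg-5, an Argonaute gene. The pair his-6/his-5 (chrV:8534976-8535271) had 81.4 for both, 39.1 in replicate 1 and 39.1 in replicate 2. Its summit lay 12 to 13 bp from the element, 90 bp before his-5 and 147 bp before his-6. In these 3 pairs the summit was between the starts and within 15 bp of the element.

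The called linker genes had summits at their starts. The peak of hil-5 (chrI:5774433-5774728) had a signal value of 93.4 for both, 55.7 in replicate 1 and 36.7 in replicate 2, with a summit 4 bp before the start. The peak of his-24 (chrX:14489955-14490250), the linker histone gene known for roles in the worm germ line, had 92.9 for both, 32.95 in replicate 1 and 48.9 in replicate 2, with a summit 9 bp after the start. The peak of hil-3 (chrX:8159015-8159310) had 84.9 for both, 46.3 in replicate 1 and 43.6 in replicate 2, with a summit 6 bp before the start. The element was 50 bp from the summit of hil-5, 63 bp from that of hil-3 and 65 bp from that of his-24, so it lay to the upstream side of the summit in all 3 genes. Replicate summits lay 1 to 60 bp from the joint summit at these linker genes, and 1 to 22 bp from it at the 3 pairs.

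The remaining 2 called units, his-72 and his-2/his-1, had no element, and their summits lay inside coding sequence. The gene his-72 has 2 annotated starts, and the element was searched before the outermost one. Its summit lay 207 bp after the inner start, through which the gene was called. The peak at his-72 (chrIII:12367809-12368104), which codes for H3.3, had 74.7 for both, 41.1 in replicate 1 and 34.8 in replicate 2, and also lay 584 bp before Y75B8A.33. The peak at his-2/his-1 (chrV:16041922-16042217; H3 and H4) had 57.0 for both and 42.6 in replicate 1. The nearest replicate 2 peak, 102 bp away, had 34.0. The summits fell at codon 67 of his-72 and codon 72 of his-2, which is the same stretch of the H3 protein. Across the joint stretch, coding bases 151 to 264, 78.9% of the bases were identical.

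The bases within 50 bp of each of these summits are shown on the coding strand, to set the H3.3 gene beside the H3 gene.
his-72, chrIII:12367907-12368007, minus strand: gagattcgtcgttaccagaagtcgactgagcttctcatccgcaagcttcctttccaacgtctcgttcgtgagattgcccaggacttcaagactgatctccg
his-2, chrV:16042020-16042120, minus strand: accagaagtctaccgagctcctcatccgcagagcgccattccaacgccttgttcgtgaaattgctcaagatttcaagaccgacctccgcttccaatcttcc
Within 50 bp of the his-2 summit 12.1% of the 36-base stretches occurred elsewhere in the genome, and none did at his-72.

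The ranked list of both replicates, with 111583 peaks, gave a value to units below the threshold too. Each unit was scored by its highest signal value in the promoter window and placed among all genes, whose median score was 30.001 and 95th percentile 65.6. By this score 9 of 51 histone units (17.6%) were at or above the 95th percentile of genes, against 4.66% of the units of all genes. They were the called units other than his-2/his-1, plus his-4/his-3 (H2B and H2A; 68.98 for both, 32.5 in replicate 1 and 35.2 in replicate 2) and his-31/his-32 (H4 and H3; 68.5, 33.5 and 35.6). These last pairs had a −log10 global IDR of 1.77 and 1.71, under the lowest value of the conservative list. The strongest peak in the window of his-2/his-1 had 64.1, at the 94.6th percentile, and was not the conservative one. The summit at his-4/his-3 lay 45 to 46 bp from the element, whereas that of his-31/his-32 lay 406 to 407 bp from it. The median percentile of the 51 units was 59.3, with 53.9 in replicate 1 and 47.6 in replicate 2. A pair takes the higher score of its genes but is placed among single genes, which can raise its percentile. With each histone gene on its own the median percentile was 43.7.

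**Figure D1:**
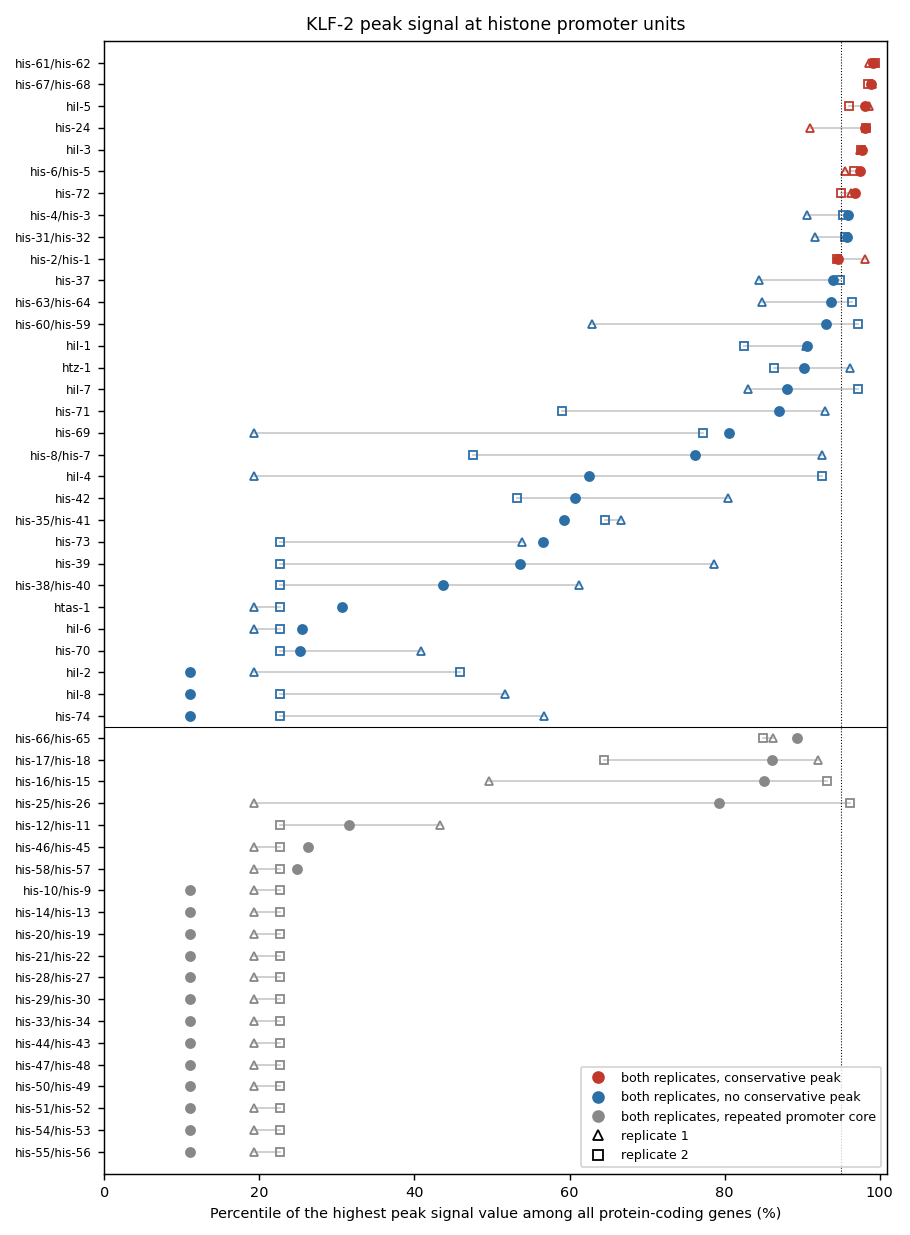
Each row is 1 histone promoter unit, and the x axis is the percentile of its highest KLF-2 signal value among all protein-coding genes in the ranked list of both replicates (filled circles), replicate 1 (triangles) and replicate 2 (squares). Red units have a conservative peak, grey units below the line have a repeated promoter core, and the dotted line is the 95th percentile: 7 of the 8 red units lie beyond it, and 13 of the 20 grey units sit at the value of a gene with no peak.

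The thresholded lists of the single replicates called fewer histone units. The list of replicate 1 called 3 of 51 units (5.88%), against 1.17% of the units of all genes, and they were his-61/his-62, his-67/his-68 and hil-5. The list of replicate 2 also called 3 of 51 (5.88%), against 1.32% of all units, with his-24 in place of hil-5. The other series-level thresholded list called 7 of 51 (13.7%), against 2.76% of all units. It held his-63/his-64 (H3 and H4; 61.3 for both replicates, 28.8 in replicate 1 and 37.6 in replicate 2 in the ranked lists) and lacked his-6/his-5 and his-2/his-1. In both replicate lists 6 of 51 histone units were in the highest 5% of genes. The same share over the units of all genes was not counted, so this number has no background.

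Many histone promoters had no peak in the ranked list of both replicates, and these were mostly promoters whose sequence is repeated in the genome. No peak in the ranked list was found for 16 of 51 histone units (31.4%), against 22.2% of the units of all genes. A promoter core is the DNA between the starts of a pair or from 250 bp before to 50 bp after a single start. Where a gene had several starts the outermost was used, so the core of his-72 does not hold its summit. A core was called repeated when at least 50% of its 36-base stretches occurred elsewhere too. The cores of 20 of 51 histone units (39.2%) were repeated, 84.0% to 100% of their stretches, against 3.00% of the units of all genes. All 20 were pairs, 12 of H2A and H2B and 8 of H3 and H4. Of these 20 units 13 (65.0%) had no ranked peak, against 50.7% of the units of all genes with a repeated core. A conservative peak was found at 0 of the 20, against 2.73% of the units of all genes, whether or not their core is repeated. In so few units a count of 0 is near that share. The 13 pairs were his-14/his-13, his-10/his-9, his-44/his-43, his-29/his-30, his-33/his-34, his-47/his-48, his-55/his-56, his-50/his-49, his-51/his-52, his-54/his-53, his-28/his-27, his-21/his-22 and his-20/his-19. The highest signal value among the 20 was 54.1, at his-66/his-65, with the summit 606 bp from the middle of the pair. The cluster on chromosome V from his-50 to his-53 had repeated cores in 3 of 3 units, and the neighbouring cluster of 8 genes from his-28 to his-18 in 4 of 4.

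The remaining 31 histone units had cores with 0% to 22.9% repeated stretches, and 23 had none. Of these, 8 (25.8%) had a conservative peak, against 2.76% of the units of all genes whose core is not repeated. Only 3 of the 31, hil-2, hil-8 and his-74, had no peak in the ranked list of both replicates. Each had one in a single replicate list: hil-8 (16.5) and his-74 (18.3) in replicate 1 and hil-2 (6.43) in replicate 2. The median percentile of the 31 units was 88.1 (84.5 in replicate 1 and 86.4 in replicate 2), against 11.0 for the 20 repeated units, the value of a gene with no peak. How reads that map to several places were treated is not given in the sources used here, and the part of repeated sequence in the missing peaks was not tested. The pair his-6/his-5 was called and has 14.3% repeated stretches in its core, while his-50/his-49, identical to it over the 19 bases before and the 26 bases after the element, has 100% repeated stretches and no ranked peak. The pair his-17/his-18 has the same bases there and 98.5% repeated stretches. It had a ranked peak of 50.6 (33.9 in replicate 1 and 18.5 in replicate 2), with the summit between its starts.

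**Figure D2:**
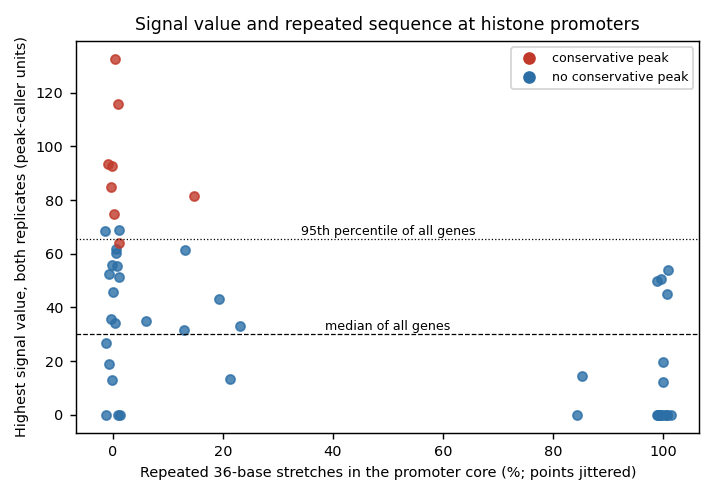
Each point is 1 of the 51 histone promoter units, with the share of repeated 36-base stretches in its promoter core on the x axis and its highest signal value in the ranked list of both replicates on the y axis. Units with a conservative peak (red) all have cores with 14.3% or less repeated sequence, and no unit with 84.0% or more exceeds 54.1.

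Within the 31 units with a core that is not repeated, those with the element had a higher median signal. Of 12 units with the element 6 had a conservative peak, and of 19 without it 2 had one, both of them the peaks in H3 coding sequence. The median percentile was 96.6 with the element and 60.7 without it. In replicate 1 the medians were 91.3 and 78.6, and in replicate 2 they were 96.4 and 53.3. The groups also differ in gene type: of the 11 core-histone units with no stem-loop, all among these 31, only 1 has the element. Among pairs alone, those with the element ranged from the 93.1th percentile (his-60/his-59) to the 99.1th (his-61/his-62). Pairs without it ranged from the 43.7th (his-38/his-40) to the 94.6th (his-2/his-1). The part of gene type was not tested. The 6 units with the element and no conservative peak were his-4/his-3, his-31/his-32, his-60/his-59, hil-4, hil-2 and his-37. At his-60/his-59 (60.1 for both replicates) the summit lay 151 to 152 bp from the element, at hil-4 (35.7) it lay 116 bp away, at his-37 (61.9) it lay 523 bp away, and hil-2 had no peak in the list of both replicates. Outside the histone genes, 67 genes had the element in the 250 bp before the start. Of these, 4 were called (5.97%), fbxc-44, plrg-1, egl-17 and mlt-9, against 3.05% of all protein-coding genes. In so few genes a count of 4 is near that share. Only at plrg-1, a splicing factor gene, did the element lie within 50 bp of the summit.

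**Figure D3:**
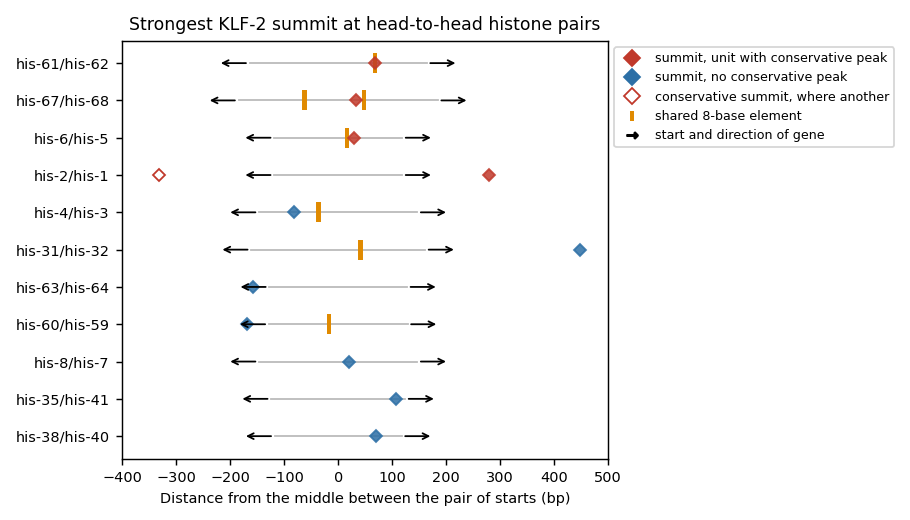
The 11 head-to-head histone pairs whose core is not repeated are drawn to scale around the middle between their starts (x axis, bp), with arrows for starts and direction, orange bars for the element and diamonds for the strongest summit in the window (red where the unit has a conservative peak; an open diamond marks the conservative summit of his-2/his-1, which is another peak). In his-61/his-62, his-67/his-68 and his-6/his-5 the summit lies beside an element.

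The boxes that KLF and SP proteins are known to bind were common before histone genes and lay near 2 of the 8 histone summits. CCGCCC or CCACCC occurred from 250 bp before to 50 bp after the starts of 28 of 51 histone units (54.9%), against 13.6% of all units. Among pairs alone the shares were 61.3% of histone pairs and 18.4% of all pairs. The shorter CACCC, which CCACCC contains, was in 39.2% of histone units and 19.96% of all units. Histone promoter cores are richer in G and C than others, with a median of 45.2% against 34.2%, and the part of base composition in these shares was not tested. Within 50 bp of the summit, a shorter stretch, CCGCCC or CCACCC was found at 2 of the 8 histone peaks, his-61/his-62 and hil-5. The share over the promoter peaks of the list was 70 of 482 (14.5%). The boxes shown above before his-24 and hil-3 did not lie wholly within 50 bp of their summits. In stretches of the same total length from 250 bp on either side of the summit, CCGCCC or CCACCC was at 0 of 8. The whole element was within 50 bp of the summit at 3 of 8 histone peaks, the called pairs other than his-2/his-1. At hil-5 the middle of the element was 50 bp away, so it was not counted. Of all 482 promoter peaks 6 held it (1.24%), and these include the 3 histone peaks.

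Other promoter motifs were counted in the same window, with no test. TATAAA was found in 77.4% of histone pairs, against 54.9% of all pairs, and CCAAT in 58.1% against 59.5%. CGCGCA, a word of E2F sites, was in 0% of histone pairs, against 14.5% of all pairs, and GAGAGA in 51.6% against 30.7%. TTTCAG, the usual end of a worm intron or outron, was in 6.45% of histone pairs, against 70.3% of all pairs. In 67 of 82 members the annotated transcript begins at the start codon, so distances for these genes are measured from the first coding base.

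**Figure D4:**
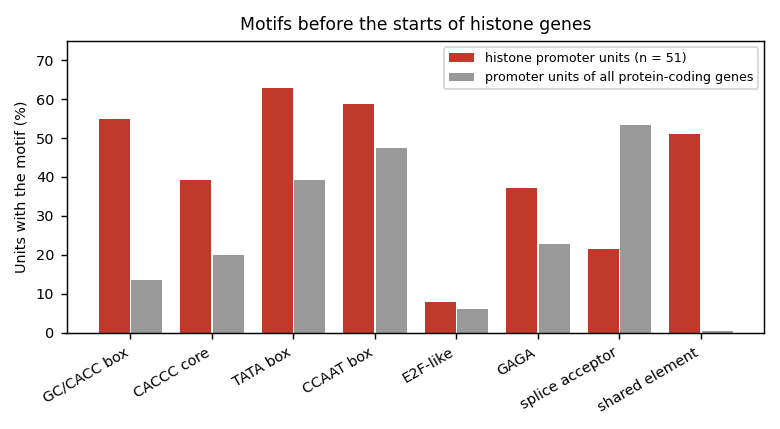
Bars give the share of promoter units (%) with each motif for the 51 histone units (red) and for the units of all protein-coding genes (grey), from 250 bp before to 50 bp after the start, or up to the start for the shared element. The GC/CACC box (54.9% against 13.6%) and the element (51.0% against 0.51%) are higher in the histone units, and the splice acceptor word TTTCAG is lower (21.6% against 53.3%).

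By class, conservative peaks were found for 3 of 16 H4 genes, 2 of 16 H3 genes, 2 of 18 H2A genes, 1 of 17 H2B genes, 1 of 5 H3.3-like genes and 3 of 9 H1 genes. The H2A.Z gene htz-1 had none, with a signal value of 55.3 for both replicates, 40.6 in replicate 1 and 26.9 in replicate 2. Among 57 stem-loop genes 7 were called, and among 25 others 5 were. The 20 units with a repeated core, of which 0 were called, are all pairs with stem-loop genes. No H1, H3.3-like or H2A.Z gene is among them. These groups therefore differ in repeated sequence, and its part in the counts was not tested. These counts by class and stem-loop are small and stand beside the 3.05% of all genes that were called. The 11 core-histone units with no stem-loop include the replacement variants, and the element was present in 1 of them, the H4 gene his-37. The H3.3 genes his-72 and his-71 code for proteins that are 99.3% identical, and his-71 was not called, with 51.5 for both replicates, 34.9 in replicate 1 and 16.7 in replicate 2. The sperm H2A gene htas-1 had 18.9 for both replicates and no peak in either replicate list. Of the H3.3-like genes, his-69 had 45.8, his-70 had 12.9 and his-74 had no peak in the list of both replicates.

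The 9 linker genes ranged from no ranked peak to the 93.4 of hil-5. Beside the 3 that were called, hil-1 had 55.8 for both replicates (32.4 in replicate 1 and 25.0 in replicate 2) and hil-7 had 52.6 (28.0 and 41.3). The gene hil-4 had 35.7 and hil-6 had 13.2, while hil-8 and hil-2 had no peak in the list of both replicates. The 3 called linker genes all had the element, and so did hil-4 and hil-2, which were not called.

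A list of 35 genes that supply, process or deposit histones, chosen with earlier results known, was looked at beside the histone genes. Of these 5 (14.3%) had a conservative promoter peak: unc-85, an H3-H4 chaperone of the ASF1 type, chaf-2, a subunit of chromatin assembly factor 1, lin-53, an RbAp46/48-type histone-binding protein, ekl-1, a Tudor protein of the CSR-1 small RNA pathway, and lin-35, the retinoblastoma protein. The background is the 3.05% of all genes given above. The signal value of lin-35 was 133.0 for both replicates, 88.8 in replicate 1 and 59.1 in replicate 2, with the summit 193 bp before the start. For unc-85 it was 127.4, 63.5 and 72.1, with the summit 326 bp before the start and in no other gene's window. For ekl-1 the value was 120.3 for both replicates, for chaf-2 112.0 and for lin-53 74.3, and the windows of prpf-4, Y71G12B.30 and nra-2 shared these peaks, as vps-51 shared that of lin-35. The gene cdl-1, whose product binds the histone mRNA stem-loop, was not called, with 53.6 for both replicates, 31.8 in replicate 1 and 17.8 in replicate 2. The median percentile over the list was 57.2, with 72.5 in replicate 1 and 59.8 in replicate 2.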

How the data were processed

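The labels give 2 biological replicates of 1 group. Per the labels the peak lists are in ce11 coordinates, which are those of WBcel235. The authors deposited ranked and IDR-thresholded lists for each replicate and for both; aligner and peak caller are not named in the sources used here. The deposited signal value is the peak caller's and was used only to rank and describe peaks within a list. The deposited score is the −log10 of the global IDR. Summits came from the deposited offsets. Read numbers are not stated, and sequencing depth is therefore unknown here.

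Gene models were Ensembl release 115, with RefSeq symbols to tell apart copies that share an Ensembl name, and sequences were read from the RefSeq WBcel235 genome. Scripts in Python 3.11.15 with NumPy 2.4.6 and Biopython 1.88 assigned summits to windows, counted repeated 36-base stretches on both strands of the genome, and assigned classes by protein identity of the first isoform. Window assignment was tested on simulated data. No test was run, because there is no second condition. Members, lists, motifs and alternatives were chosen with earlier results of these data known. Named genes are the called members and their neighbours, the 10 units with the highest signal values, and units with no ranked peak. Variant and linker genes and called supply genes are named too. Outside that rule are cdl-1, his-39, his-73 and the pairs his-17/his-18, his-38/his-40, his-60/his-59, his-63/his-64 and his-66/his-65. These and the other genes with the element were chosen after their values were seen.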

Additional observations from a re-analysis of the deposited data

How the results depend on the processing

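The other series-level list, the narrower and wider windows, the use of any base of a peak, and leaving out peaks at small-RNA genes or with a repeated stretch in the centre changed the counts of called histone genes, peaks, units and clusters by no more than 1.5 times. Keeping peaks at or above the median signal value of the conservative list (93.9) left 4 genes, 2 peaks, 2 units and 2 clusters, with 1 peak that has CCGCCC or CCACCC at the summit. Most histone peaks were therefore below the median of that list. The share of all genes called at this cut was not counted, so these numbers have no background. With 1 replicate left out, the thresholded list of the other gave 5 genes, 3 peaks, 3 units and 3 clusters in either case, 2 to 3 supply genes and 1 to 2 peaks with the motif.

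The median percentile of 59.3 was 47.6 to 53.9 with 1 replicate left out. It was 43.8 with the narrower window, 71.02 with the wider one, 43.7 with each gene on its own and 43.7 without best peaks that have a repeated stretch in the centre. Without the units with a repeated core, an alternative chosen after seeing the data, it was 88.1. The 9 units in the highest 5% of genes became 14 genes when each gene was counted on its own, and 8 to 13 units with 1 replicate left out. No paired analysis was possible because there is only 1 group. A list that lacks a unit does not show that the unit is unbound.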
